A study of Mus musculus with 2 samples.

Results

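The 8 genes described here encode the protein kinase C family of serine/threonine kinases: *Prkca*, *Prkcb*, *Prkcd*, *Prkce*, *Prkch*, *Prkci*, *Prkcq* and *Prkcz*. They were found by gene name among 20250 genes with protein-coding RefSeq transcripts, and they hold 9 of 26968 such rows. The family was chosen with earlier results of these data known, and it was partly chosen by the FPKM of *Prkcb* in these same 2 libraries, so its differences between the cell types are given as a description and carry no test. RNA-seq was measured in 1 library of *Ebf1* -/- pre-pro-B cells, from female fetal liver, and 1 library of *Rag2* -/- pro-B cells, from male adult bone marrow, with sex and tissue as the study's methods give them. Both were C57BL/6 cultures on OP-9 stromal cells with Il-7 at 5 ng/mL, and the pre-pro-B medium also held Scf and Flt3l at 10 ng/mL each. Both cell types are held by their mutation: without the B lineage factor Ebf1 cells stop before commitment, and without the recombinase Rag2 they stop before an immunoglobulin chain is made. Genotype, sex, age, tissue and cytokines therefore cannot be told apart from cell type, and no difference below has a replicate check. The targeted genes do not check the labels: *Ebf1* had 64.0 FPKM in the library labelled *Ebf1* -/- and 272.9 in the other, and *Rag2* had 22.9 FPKM in the library labelled *Rag2* -/- and 34.5 in the other. These values sum reads over a whole transcript, and which part of each gene was deleted is not given in the sources used here, so the cell types are named as labelled and all directions rest on those labels. The labels give the depth as about 90000000 reads per library, and the table holds no counts.

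Protein kinase C enzymes sort into classes by what switches them on. The conventional isozymes (alpha from *Prkca*, beta from *Prkcb*) need calcium and diacylglycerol, the membrane lipid that phospholipase C releases. A calcium-independent class (delta, epsilon, eta and theta, from *Prkcd*, *Prkce*, *Prkch* and *Prkcq*) needs diacylglycerol alone, and the atypical ones (iota and zeta, from *Prkci* and *Prkcz*) need neither and work with polarity proteins. In B cells the beta isozyme carries signals of the B cell receptor to NF-kB by way of Bcl10 and Malt1, and theta has the matching place behind the T cell receptor. All levels are FPKM, read fragments scaled to transcript length and to the mapped fragments of the library. Where a family gene above 0 is described, its levels carry the 95% interval that Cuffdiff computed, in brackets. Levels of all other genes are given without it, and paired values give pre-pro-B first.

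By the listed FPKM, the isozyme with the largest share of the family's RNA differed between the libraries. In each library the intervals of *Prkch* and *Prkcb* overlapped, and the family was partly chosen by *Prkcb*. In the pre-pro-B library the 8 genes summed to 121.6 FPKM, and *Prkch* held 46.3% of it. In pro-B cells the sum was 221, and *Prkcb* held 74.6%, against 2.39% in pre-pro-B cells. Without *Prkcb*, the other 7 genes summed to 118.7 FPKM in the former library and 56.2 in the latter, so the family total and the total of its other members differed in opposite directions. In bulk RNA fewer cells of a type and less RNA per cell cannot be told apart.

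**Figure D1:**
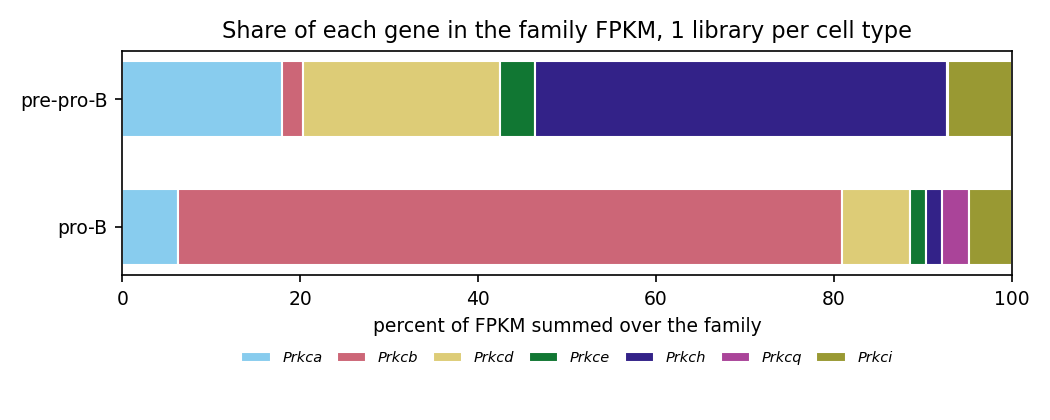
Bars give each gene's percent of the FPKM summed over the protein kinase C family (x axis) in the pre-pro-B and the pro-B library, 1 library each and no error bars. *Prkch* held 46.3% in pre-pro-B cells, and *Prkcb* held 74.6% in pro-B cells. *Prkcz* was listed at 0.

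Of the 8 genes, 7 reached 1 FPKM in one library or both. With a pseudocount of 1, *Prkcb* and *Prkcq* were higher in pro-B cells by 2-fold or more, *Prkch* was lower by 2-fold or more, and *Prkca*, *Prkcd*, *Prkce* and *Prkci* lay within 2-fold. By the same rule 12.2% of 10528 genes had the higher level in pro-B cells, 19.1% had the lower one, and 31.3% were one or the other. Since the family was chosen with this contrast known, the 3 of 7 genes past 2-fold are not read against that background. The median log2 ratio, pro-B over pre-pro-B, was -0.23 over the 7 genes and -0.14 over all 10528. The genes with large differences lay on both sides of these medians.

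The 250 bases before the start of each of the 3 genes past 2-fold are shown because these are the members that differ. They were read from NCBIM37, which is mm9, on the plus strand, ahead of the transcript start in the deposited table, at chr7:129432389-129432638, chr12:74685778-74686027 and chr2:11093759-11094008. Capitals mark the octamer ATGCAAAT, known from immunoglobulin promoters and bound by Oct factors, and E-boxes of the form CANNTG, bound by E proteins such as E2a.

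Prkcb: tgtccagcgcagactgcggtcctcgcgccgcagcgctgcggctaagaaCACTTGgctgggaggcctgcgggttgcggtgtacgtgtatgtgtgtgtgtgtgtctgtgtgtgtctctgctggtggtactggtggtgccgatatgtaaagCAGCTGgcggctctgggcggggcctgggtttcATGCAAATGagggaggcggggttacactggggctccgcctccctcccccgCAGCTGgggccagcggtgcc

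Prkch: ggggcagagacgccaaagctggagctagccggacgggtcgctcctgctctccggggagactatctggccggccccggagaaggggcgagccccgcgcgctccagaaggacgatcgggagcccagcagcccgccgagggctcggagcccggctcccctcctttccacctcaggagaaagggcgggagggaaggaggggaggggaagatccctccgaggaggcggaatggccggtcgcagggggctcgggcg

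Prkcq: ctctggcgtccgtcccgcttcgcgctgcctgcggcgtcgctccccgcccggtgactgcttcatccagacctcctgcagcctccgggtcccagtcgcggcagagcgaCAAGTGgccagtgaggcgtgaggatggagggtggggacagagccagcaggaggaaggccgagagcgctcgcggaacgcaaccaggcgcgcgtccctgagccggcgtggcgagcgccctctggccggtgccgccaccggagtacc

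The GENCODE gene begins upstream of the window for *Prkcb* and *Prkcq* and inside it for *Prkch*, so the windows also hold bases that GENCODE counts as transcribed. The *Prkcb* window held 1 octamer, starting 70 bases before the transcript start, and 4 E-boxes, 1 of them overlapping the octamer. The *Prkch* window held neither, and the *Prkcq* window held 1 E-box. On both strands the octamer was in 1.59% of 17846 windows of this length, and in 1 of the 8 windows of the family. E-boxes were in 61.3% of all windows and in 5 of 8 of the family. The octamer was searched after the windows were read. The core CCCNNGGG, known from sites of Ebf1, was in 14.0% of all windows. In the family it was in those of *Prkcd* and *Prkcz*, and in none of the windows shown. The E-box CAGGTG was in 16.3% of all windows and in the same 2 windows of the family, and the Runx motif TGTGGT was in 11.9% and in none of the 8. Each family window had between 17 and 39 CG pairs, where the median of all windows was 11. These are matches of letters in short windows, and binding was not measured here.

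Among the conventional isozymes, *Prkcb* (chromosome 7 of mm9, 129432265 to 129777916, plus strand) was measured through 1 transcript, NM_008855. It had 2.91 FPKM [0.125 to 7.38] in the pre-pro-B library against 165.3 [4.56 to 432] in the pro-B library, a 56.9-fold difference. The level of *Prkcb* in pro-B cells stood at the 96.7th percentile of the genes with an FPKM of at least 1 there, and its level in pre-pro-B cells at the 11.6th. Of 10528 genes, 37 had a larger log2 ratio than the 5.41 of *Prkcb*. These ranks are a description only, because the family was partly chosen by these values. The intervals of *Prkcb* still overlapped, between 4.56 and 7.38.

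*Prkca* (chromosome 11, 107794701 to 108205242, minus strand), the other conventional gene, had 21.8 FPKM [0.883 to 47.1] in the pre-pro-B library against 13.8 [0.434 to 30.0] in the pro-B library. It was 1.58-fold lower in pro-B cells. *Prkca* was thus above *Prkcb* in the pre-pro-B library and below it in the pro-B library, although in each library their intervals overlapped. Both conventional genes together summed to 24.7 and 179 FPKM.

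In the calcium-independent class, *Prkch* (chromosome 12, 74685783 to 74879172, plus strand) went the other way. It had 56.3 FPKM [2.20 to 116.8] in the pre-pro-B library against 4.03 [0.120 to 10.1] in the pro-B library, a level 14.0-fold lower in pro-B cells. It was the first of the family in pre-pro-B cells and the sixth in pro-B cells. Of 10528 genes, 256 had a log2 ratio below the -3.51 of *Prkch*, and its intervals overlapped between 2.20 and 10.1. The family was chosen with this contrast known, so this rank is a description only.

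*Prkcq* (chromosome 2, 11093740 to 11222853, plus strand), best known from T cells, had 0.148 FPKM [0 to 0.572] in the pre-pro-B library against 6.62 [0.239 to 17.0] in the pro-B library. The ratio of these levels was 44.8, and the log2 ratio with a pseudocount of 1 was 2.73, since the pseudocount exceeds the pre-pro-B level. At the read depth that the labels give, the pre-pro-B value stands for about 44 fragments and the pro-B value for about 1973. The gene was near the bottom of the family in pre-pro-B cells and the fifth in pro-B cells, and its intervals overlapped between 0.239 and 0.572. Of 6 listed T cell markers, *Cd3g* (36.8 and 0.0351), *Lck* (38.0 and 2.996) and *Cd4* (1.15 and listed at 0) were lower in pro-B cells. The other 3 had an FPKM under 1 in both libraries. The part of T lineage cells in the level of *Prkcq* was not tested.

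*Prkcd* (chromosome 14, 31408542 to 31439396, minus strand), which in B cells is known for limiting the response to self antigen, had 26.9 FPKM [2.55 to 61.8] in the pre-pro-B library against 17.1 [1.22 to 41.2] in the pro-B library. It was the second of the family in both libraries. *Prkce* (chromosome 17, 86567125 to 87057259, plus strand) had 4.83 FPKM [0.142 to 9.72] in the pre-pro-B library against 3.97 [0.164 to 8.18] in the pro-B library. Both genes lay within 2-fold. Together the 4 genes of this class summed to 88.2 and 31.7 FPKM, and *Prkch* made up most of that difference.

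Of the atypical genes, *Prkci* (chromosome 3, 30894669 to 30951663, plus strand) had 8.70 FPKM [1.39 to 15.9] in the pre-pro-B library against 10.7 [1.91 to 19.4] in the pro-B library. Its level was 1.23-fold higher in pro-B cells, and its intervals were the narrowest of the family relative to their lower limit. *Prkcz* (chromosome 4, 154634238 to 154735470, minus strand) has 2 transcripts in the table, NM_001039079 and NM_008860, and both were listed at 0 in both libraries. At the stated depth 3 fragments would have given them an FPKM of 0.00815 and 0.00780, a limit for counting error only. Cuffdiff marked both transcripts as OK in each library. A listed 0 can still come from the way levels are estimated, so it is not read as absence.

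**Figure D2:**
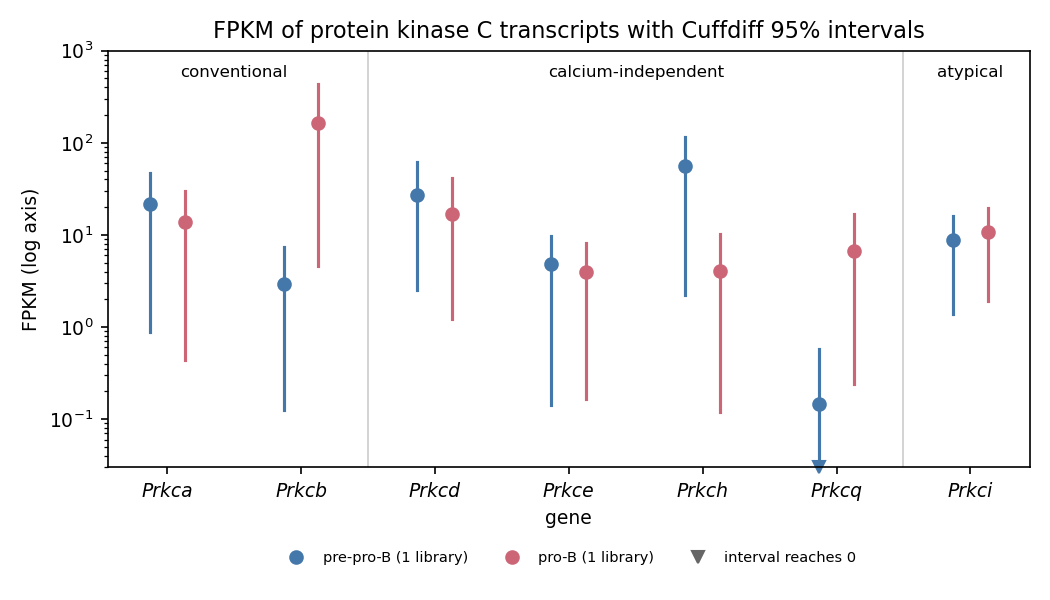
Points give the FPKM (log axis) of the 7 protein kinase C transcripts above 0, in the pre-pro-B library (blue) and the pro-B library (red), and lines give Cuffdiff's 95% interval, with a triangle where it reaches 0. *Prkcb* was at 2.91 and 165.3 and *Prkch* at 56.3 and 4.03, and every pair of intervals overlapped.

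Cuffdiff made these intervals from 1 library per cell type with a dispersion estimated across both, and they are wide. In pro-B cells the upper limit of *Prkcb* was 94.8 times its lower limit, and the median of this ratio over all transcripts above 0 in both libraries with a lower limit above 0 was 53.0. For 0 of the 7 family transcripts above 0 in both libraries did the intervals of pre-pro-B and pro-B cells lie apart, against 3.14% of all 15073 such transcripts. The order of the genes within a library is as uncertain. In pro-B cells 0 of 21 pairs of family transcripts had intervals that did not overlap. In pre-pro-B cells 4 of 21 pairs did not, each of them *Prkcq* below *Prkca*, *Prkcd*, *Prkch* or *Prkci*.

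**Figure D3:**
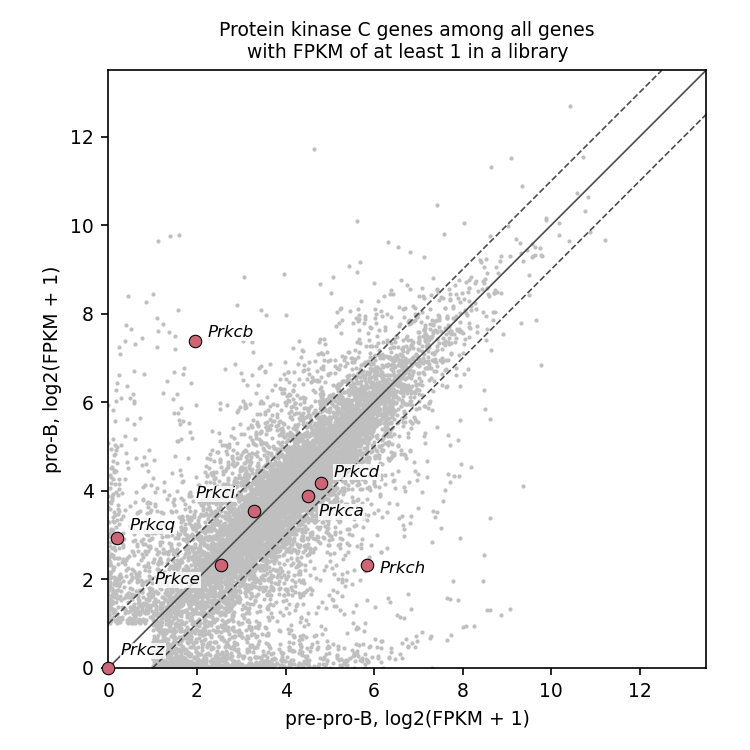
Grey points are the genes that reached 1 FPKM, by log2(FPKM + 1) in pre-pro-B cells (x axis) and pro-B cells (y axis), red points are the protein kinase C genes, the solid line marks equal levels and the dashed lines 2-fold. *Prkcb* and *Prkcq* lie above the upper dashed line and *Prkch* below the lower one.

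The genes nearest to *Prkcb* over log2(FPKM + 1) of the 2 libraries were *Cd79b*, *Blnk*, *Cecr2*, *Akap12* and *Apobec1*, at distances of 0.49 to 0.72. *Cd79b*, a signal chain of the B cell receptor, had levels of 1.81 and 180.5 FPKM. *Blnk*, the adaptor that joins Syk to Btk and phospholipase C gamma, had 1.83 and 147, with intervals that did not overlap. *Akap12*, a scaffold that binds protein kinase C and protein kinase A, had 2.24 and 108.6. For *Prkce*, a gene of even level, the nearest included *Naglu*, *Afg1l*, *Eef2kmt* and *Borcs5*, at distances of 0.023 to 0.035. With 2 libraries such likeness rests on 2 values per gene.

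All 7 pro-B markers were higher in the pro-B library by 2-fold or more, with sums of 6.82 and 2047 FPKM, while the 5 genes listed for pre-pro-B cells and earlier progenitors were mixed. Of these *Flt3*, *Kit* and *Cd34* were lower in pro-B cells, *Rag1* was higher at 24.4 and 64.4 FPKM, and *Il7r* lay within 2-fold at 349 and 424. Markers of other blood lineages that reached 1 FPKM were lower in pro-B cells, except *Itga2b*, which lay within 2-fold. The rest of those measured had an FPKM under 1 in both libraries. Of all genes that reached 1 FPKM, 19.1% were lower. The 6 myeloid markers summed to 63.5 and 6.63 FPKM, with 4 lower and *Elane* listed at 0 in both. The 3 NK cell markers summed to 76.5 and 3.49, all lower, and the 6 T cell markers to 77.1 and 3.13. The 3 mast cell and basophil markers summed to 10.5 and 0.0296 and the 3 megakaryocyte markers to 3.82 and 0.147, with *Mcpt8* and *Pf4* listed at 0 in both, and of 3 erythroid markers the 2 measured summed to 0.196 and 0.145. The part of these lineages in the level of *Prkch* was not tested. The 6 stromal markers summed to 17.4 and 5.67, of which *Pdgfrb* made up 15.9 in pre-pro-B cells, while *Col1a2* was at 0.707 and 2.82.

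Of the genes that surround the family, 86 were listed in 7 groups with earlier results of these data known. All were measured and 59 reached 1 FPKM. Of these, 5 were higher in pro-B cells by 2-fold or more, 21 were lower, and their median log2 ratio was -0.47. Over all genes the shares were 12.2% higher and 19.1% lower, with a median of -0.14. Each list below has 13 genes or fewer at 1 FPKM, so its counts are a description and are not read as particular to the list. Among the genes named, intervals of the most abundant transcript did not overlap for *Blnk*, *Plcb2*, *Dgkg*, *Chn2*, *Unc13d*, *Nrgn* and *Plek*. They overlapped for others, among them *Mtor*, *Plcg2*, *Dgka*, *Malt1*, *Add3* and *Marcks*. Over all transcripts above 0 in both libraries, 3.14% had intervals that did not overlap.

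The upstream group holds phospholipases C, kinases that prime or activate protein kinase C, phosphatases that remove their phosphates, and the B cell receptor's proximal kinases. Of 13 that reached 1 FPKM, 2 were higher in pro-B cells and 3 were lower, with a median log2 ratio of -0.07. The higher ones were *Blnk*, given above, and *Mtor*. *Mtor*, the kinase of the complex that phosphorylates the tail of protein kinase C, had levels of 9.59 and 34.8 FPKM. *Rictor*, listed in the same group and named after its values were seen, lay within 2-fold at 41.0 and 39.0. *Plcg2*, which makes diacylglycerol behind the B cell receptor, was lower, at 108.6 and 38.7, and *Plcb2*, which answers to G proteins, was at 9.87 and 0.164. *Pdpk1*, which phosphorylates the activation loop of these kinases, was at 47.6 and 49.7.

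Diacylglycerol kinases end the lipid signal by turning diacylglycerol into phosphatidic acid. Of 7 that reached 1 FPKM, *Dgka* was higher in pro-B cells, with levels of 13.8 and 41.2 FPKM. *Dgke* (18.03 and 4.45), *Dgkg* (3.46 and 0.0196) and *Dgkh* (3.998 and 1.48) were lower. The gene with the highest level of the group, *Dgkd*, was at 101.8 and 103.4.

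Other proteins that diacylglycerol recruits were also listed, with relatives. Of 8 that reached 1 FPKM, 4 were lower in pro-B cells and 1 was higher, with a median log2 ratio of -1.06. *Rasgrp1*, an activator of Ras, had levels of 1.89 and 0.209 FPKM. *Rasgrp4* was at 5.55 and 0.00231, and *Chn2*, a chimaerin that turns Rac off, at 7.97 and 0.0542. *Unc13d*, which acts in granule release and lacks the lipid binding domain of its relatives, was at 10.4 and 0.0562. The gene higher in pro-B cells was *Rasgrp2*, at 17.3 and 36.3, named after its values were seen.

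Of 8 scaffolds and polarity partners that reached 1 FPKM, *Akap12* was higher in pro-B cells by 48.4-fold, with intervals that overlapped, and 3 were lower. *Pard6g*, a partner of the atypical isozymes, had levels of 5.45 and 1.42 FPKM. *Sqstm1*, the autophagy receptor that also binds atypical isozymes, was at 103.3 and 45.9, and *Ywhaz*, a 14-3-3 protein, at 73.1 and 35.4. The median log2 ratio of the group was -0.66.

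In the branch from protein kinase C to NF-kB, 0 of 12 genes that reached 1 FPKM were higher in pro-B cells and 3 were lower, with a median log2 ratio of -0.48, where 12.2% of all genes were higher and 19.1% lower. *Malt1*, the protease that acts with Bcl10, had levels of 51.4 and 11.6 FPKM, and *Card9*, an adaptor used by myeloid cells, at 1.85 and listed at 0. *Bcl10* lay within 2-fold, at 32.2 and 20.3, and *Traf6* at 27.0 and 49.5.

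Of 8 substrates that reached 1 FPKM, 0 were higher in the pro-B library and 5 were lower, with a median log2 ratio of -1.64, beside the same shares of 12.2% and 19.1% over all genes. *Nrgn*, which binds calmodulin, had levels of 98.0 and 0.471 FPKM. *Plek*, the main substrate of protein kinase C in platelets, was at 71.7 and 0.516. For both genes the intervals did not overlap. *Add3*, an adducin of the membrane skeleton, was at 62.5 and 10.3, and *Marcks*, which protein kinase C releases from the membrane, at 17.6 and 2.83. Its relative *Marcksl1* was at 44.6 and 52.0.

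Of the related kinases outside the family list, *Pkn2* was at 48.6 and 49.4 FPKM and *Pkn3* at 0.613 and 1.05, both within 2-fold.

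**Figure D4:**
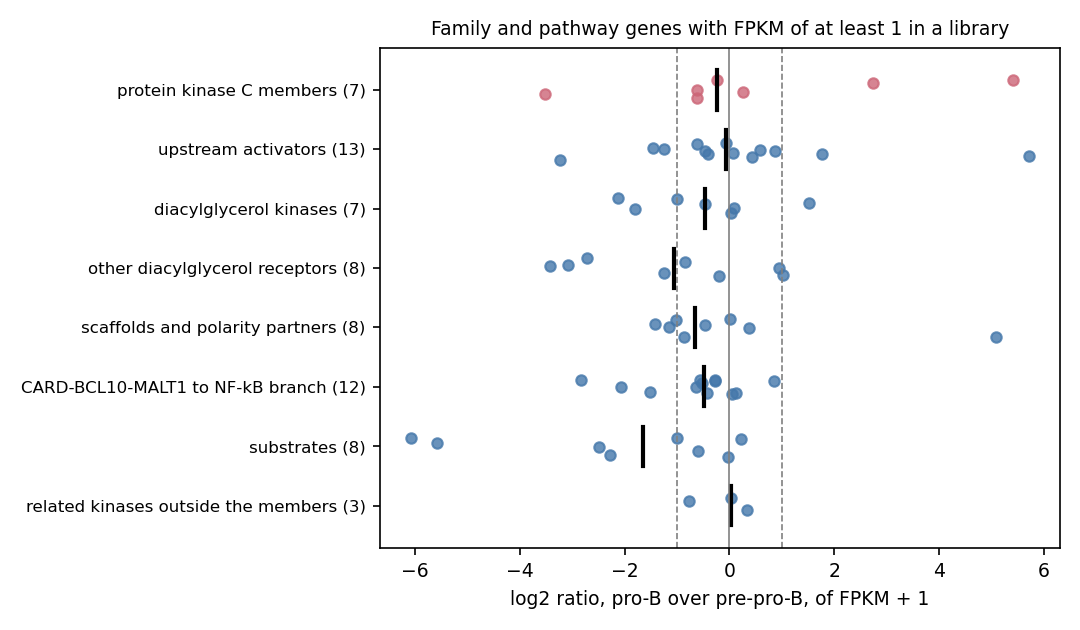
Each point is a gene that reached 1 FPKM, with its log2 ratio on the x axis (pro-B over pre-pro-B, pseudocount of 1), for the protein kinase C genes (red) and 7 lists of pathway genes (blue), with the number of genes in parentheses, bars at medians and dashed lines at 2-fold. The substrates had the lowest median, -1.64, and *Blnk* and *Akap12* lie beside *Prkcb* at the right.

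The genes next to the family on the chromosome were examined after the values were seen. Of the 16 nearest neighbours, 3 were higher in pro-B cells by 2-fold or more, 0 were lower, 6 lay within 2-fold and 7 had an FPKM under 1 in both libraries. Of all genes that reached 1 FPKM, 12.2% were higher and 19.1% lower, and with 9 such neighbours nothing is read from the counts. Both neighbours of *Prkcb*, *Chp2* and *Cacng3*, were listed at 0 in both libraries. Next to *Prkch*, *Tmem30b* was listed at 0 in both and *Hif1a* was at 76.2 and 58.8. Both neighbours of *Prkcq* were higher in pro-B cells like *Prkcq* itself: *Sfmbt2* was at 6.62 and 18.5 and *Pfkfb3* at 6.36 and 23.5, at 577 kb and 170 kb from it. The third gene higher in pro-B cells was *Skil*, next to *Prkci*, at 11.0 and 23.6.

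The members can largely be told apart by sequence. Of the 32-base stretches of the longest GENCODE protein-coding transcript of each gene, between 0% and 0.275% occurred in a transcript of another gene for 7 of the 8, and 6.45% did for *Prkcq*, none of them in another member. *Prkca* and *Prkcb* shared 7 such stretches. The *Prkcb* transcript used for this has 2911 bases and the RefSeq one has 8829 bases, so most of the latter was not covered.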

How the data were processed

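Total RNA of 2 cultures was depleted of ribosomal RNA and sequenced, strand specific and single end, in reads of 97 bp, to about 90000000 reads each. The authors trimmed the reads, aligned them to mm9 with TopHat and estimated the deposited FPKM and its 95% limits for each RefSeq transcript with Cuffdiff 2.1.1, using multi-read and bias correction and no scaling between libraries. A second deposited table, of the authors' log2 fold changes, test statistics, p-values and q-values with a second copy of the FPKM, was not used. FPKM carry no counts, so fragments were approximated from length and the stated depth. That depth counts sequenced reads, not mapped ones, and is the same for both libraries, so the fragment numbers are rough.

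Accessions were named with a RefSeq gene table of GRCm38, used for names only, which matched 26173 of 26580. FPKM were summed per gene and compared as log2(FPKM + 1). A gene was counted at 2-fold if it reached an FPKM of 1 in either library. With 1 library per cell type no test was made. Gene coordinates are those of GENCODE vM1 on mm9, and promoter windows end just before the transcript starts of the deposited table. Starts met an annotated one for 14725 of 26126 transcripts when 1 was added. The genes, pathway and marker lists and alternatives were chosen with earlier results of these data known. Named pathway genes were up to 4 of each list with the largest log2 ratio, and others were named after their values were seen. Some genes that this rule names are not reported here. The counting was tested on simulated data of well expressed genes with large changes and little noise. Low levels such as those of *Prkcq* were not covered, and the simulation does not measure the error in these data. Python 3.11.15, numpy 2.4.6, pandas 2.3.3 and matplotlib 3.10.9 were used.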

Additional observations from a re-analysis of the deposited data

How the results depend on the processing

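No paired analysis was possible because each cell type has 1 library, and for the same reason no replicate could be left out. The alternatives were a pseudocount of 0.1, rescaling to TPM or by the median ratio, the most abundant transcript of each gene, leaving out repeated rows, and other filters on low FPKM. TPM shifted log2 ratios by -0.12 and the median ratio by 0.09. Under all of these the 7 genes above 0 kept their direction, and *Prkcb* and *Prkch* stayed past 2-fold. With an FPKM of at least 1 required in both libraries *Prkcq* was no longer counted, which left 2 family genes past 2-fold, and 15 pathway genes in place of 26, since fewer genes were counted. The log2 ratio of *Prkcq* was 4.76 with a pseudocount of 0.1, against 2.73. The share of all genes past 2-fold ranged from 21.6% to 36.3%. What limits every value is the single library per cell type.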
